A study of Homo sapiens with 6 samples.

Results

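Most microRNAs (miRNAs) are cut from long transcripts by the nuclear DROSHA-DGCR8 complex and then by DICER1, but some hairpins enter the pathway without DROSHA. 9 such miRNAs were followed here, namely hsa-miR-320a, hsa-miR-320b, hsa-miR-320c, hsa-miR-320d, hsa-miR-320e, hsa-miR-484, hsa-miR-877-5p, hsa-miR-877-3p and hsa-miR-1226-3p. They were taken by name from the 2588 miRNAs of the deposited table, on the basis of how their precursors are made, and rows of the same name were summed. The libraries are small RNA-seq of A549, an established human lung adenocarcinoma cell line. 3 libraries came from control cells (Ctrl) and 3 from cells in which a stretch of the MIR21 locus had been deleted with CRISPR/Cas9 (MIR21-KO). All cells grew in DMEM with 10% serum, were harvested 48 h after seeding and carry no other agent in the labels. The deletions were isolated as single-cell clones. The study's methods speak of biological triplicates in general terms, while the labels do not say whether the 3 MIR21-KO libraries stand for 1 clone or several, and p-values measure the spread between these libraries.

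Each library held between 5577287 and 9768152 miRNA reads. Values are normalised reads, that is CPM (reads per 1000000 miRNA reads) scaled by TMM (trimmed mean of M-values, a factor that equalises the bulk of the miRNAs between libraries). 1 read was worth between 0.0720 and 0.270 of a normalised read. The knockout was seen in every library, with miR-21-5p taking 67.8% ± 2.05 of all miRNA reads in the 3 Ctrl libraries and 0.0217% ± 0.00534 in the 3 of MIR21-KO (mean ± SD, n = 3 each). Over 597 other miRNAs, the first principal component held 72.2% of the variance and did not follow the genotype. It set Ctrl 1, Ctrl 2 and MIR21-KO 3 (called library set A here) apart from Ctrl 3, MIR21-KO 1 and MIR21-KO 2 (library set B). No label names these sets, which were drawn from the data without the 9 miRNAs and miR-21, and results that move with them are given with and without them.

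The precursors of miR-320a and miR-484 are known as capped hairpins. RNA polymerase II makes them as short transcripts whose 5′ end is the start site itself, the cap stays on, export has been tied to exportin 1 rather than exportin 5, and DICER1 then cuts the hairpin. Mirtrons, such as those of miR-877 and miR-1226, are short introns: the spliceosome cuts them out, the lariat is opened, and the intron itself folds into the hairpin that DICER1 cuts. Neither route needs DROSHA, which is what joins these miRNAs. For miR-320b to miR-320e, grouping with miR-320a rests on the family name and sequence.

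The mature sequences show how close the family members are. Of the 9 miRNAs, 8 had an entry in the RefSeq table used (GRCh38.p14), and miR-320a had none. The lines below give those that separate the members, 5′ to 3′ with the seed, bases 2 to 8, in capitals. miR-4429 is added since it has the seed of miR-320b, miR-320c and miR-320d.
hsa-miR-320b: aAAAGCUGgguugagagggcaa
hsa-miR-320c: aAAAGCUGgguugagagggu
hsa-miR-320d: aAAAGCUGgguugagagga
hsa-miR-320e: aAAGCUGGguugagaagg
hsa-miR-4429: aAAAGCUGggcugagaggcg
hsa-miR-484: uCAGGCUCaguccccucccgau
hsa-miR-877-5p: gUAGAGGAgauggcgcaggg
hsa-miR-877-3p: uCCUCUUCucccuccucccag
hsa-miR-1226-3p: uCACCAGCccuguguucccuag

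The first 18 bases are the same in miR-320b, miR-320c and miR-320d. Counted from 1 at the 5′ end of miR-320b, with its base first, miR-320c differs by C20U and ends there, and miR-320d differs by G19A and ends there. miR-320e lacks 1 base at the 5′ end, which moves its seed, and carries G17A. miR-4429 differs at 3 positions, U11C, G19C and C20G. Reads of miR-320b, miR-320c and miR-320d are therefore told apart only by bases at the 3′ end, where trimming and tailing also act, so their division between these members is uncertain. Without a sequence of miR-320a, how its reads are told from those of the other members could not be shown. The division between miR-320a and the rest is therefore uncertain too. The handling of reads that fit several members or several loci was not given in the sources used here.

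The family is scattered over the genome. In GRCh38, mature miR-320b lies at chr1:116671787-116671808 on the plus strand, with no annotated host gene, and at chr1:224257049-224257070 on the minus strand within an intron of NVL. miR-320c lies at chr18:21683559-21683578 and chr18:24321716-24321735, both on the plus strand and antisense to introns of ABHD3 and OSBPL1A. miR-320d lies at chr13:40727828-40727846 and chrX:140926172-140926190, both on the minus strand outside annotated genes. miR-320e lies at chr19:46709294-46709311 on the minus strand within an intron of PRKD2. miR-484 lies at chr16:15643301-15643322 on the plus strand. Its hairpin falls in an untranslated exon of NDE1 and begins 27 bases downstream of the annotated start of that transcript.

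Both mirtrons filled an intron from end to end. The annotated MIR877 hairpin (86 bases, chr6:30584332-30584417, plus strand) was identical in extent to an intron in 3 of 3 overlapping transcripts of ABCF1. The MIR1226 hairpin (75 bases, chr3:47849555-47849629, plus strand) was identical to an intron in 6 of 6 overlapping transcripts of DHX30. They are shown whole because their ends are the splice sites, with the first GU and the last AG in capitals.
MIR877 hairpin: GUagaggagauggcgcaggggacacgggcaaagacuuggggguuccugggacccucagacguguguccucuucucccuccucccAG
MIR1226 hairpin: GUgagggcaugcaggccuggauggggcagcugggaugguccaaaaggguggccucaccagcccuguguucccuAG

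miR-877-5p is bases 1 to 20 of its hairpin and begins at the splice donor, whereas miR-877-3p is bases 66 to 86 and ends at the acceptor. miR-1226-3p, bases 54 to 75, also ends at the acceptor. Of 1562 hairpins in the table, 36 (2.3%) began with GU and ended with AG, a count that includes 10 of 10 hairpins of other annotated mirtrons.

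miR-320a was by far the most abundant of the 9. By mean over the 6 libraries it ranked 23 among the 1539 miRNAs with reads. miR-320b ranked 127, miR-484 ranked 148, miR-320c ranked 202, miR-320d ranked 333, miR-877-5p ranked 426, miR-320e ranked 466, miR-1226-3p ranked 540 and miR-877-3p ranked 783. By ranges pooled over the libraries, miR-320a alone stood clear of its neighbour, since its lowest library (2037 normalised reads) lay above the highest of miR-320b (560 normalised reads). Every other pair of neighbours in that order overlapped in its pooled ranges. Compared within each library, miR-484 was above miR-320c, miR-320c above miR-320d and miR-320d above miR-877-5p in all 6. Apart from miR-320a and miR-320b, the remaining pairs changed order or tied in at least 1 library. The place of miR-320b above miR-484 came from MIR21-KO, where the means were 376 and 171 normalised reads, and in Ctrl miR-484 (142) was above miR-320b (117). These are read shares, and different miRNAs can be ligated with different efficiency, so an order between miRNAs is one of reads and not of molecules.

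The comparison of MIR21-KO with Ctrl asks which miRNAs differ once the MIR21 locus is deleted. No member passed the test. Using limma on log2(value + 1) with Benjamini-Hochberg adjustment over the 607 miRNAs that reached 1 normalised read in at least 3 libraries, 0 of the 8 members tested were higher in MIR21-KO and 0 were lower. The background was 0% of all tested miRNAs called higher and 0.824% called lower. edgeR and DESeq2 on the recovered reads also called 0 members. All 8 fold changes were positive, with a median log2 fold change of 1.05, where the median of all 607 miRNAs was 0.24. The unadjusted p was below 0.05 for 4 members (miR-320a, miR-320b, miR-320c and miR-877-5p), against 6.75% of all tested miRNAs in this direction. With libraries scaled to the total without miR-21, the unadjusted p of these 4 was 0.0977 to 0.152 (limma). In normalised reads the groups did not overlap for 3 members (miR-320a, miR-320d and miR-877-5p). This compares with 9.56% of all tested miRNAs in the same direction (lowest MIR21-KO value above the highest Ctrl value). As shares of the miRNA reads other than miR-21, all 3 overlapped between the groups. The family members share most of their sequence, so they are not independent counts.

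**Figure D1:**
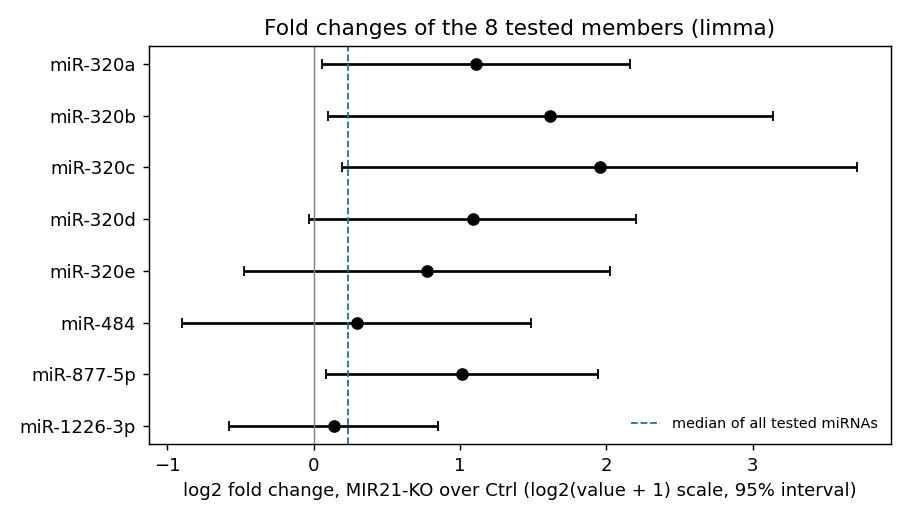
Log2 fold change, MIR21-KO over Ctrl, of the 8 tested miRNAs with 95% intervals from limma on log2(value + 1), beside 0 (grey line) and the median of all 607 tested miRNAs (0.24, dashed). All 8 points lie to the right of 0, and the intervals of miR-320a, miR-320b, miR-320c and miR-877-5p lie wholly above it before adjustment for the number of miRNAs tested.

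miR-320a, the founding member of its family, counted 2037, 3131 and 3130 normalised reads in Ctrl 1 to 3 and 8299, 6973 and 3475 in MIR21-KO 1 to 3. On this scale the groups did not overlap, though MIR21-KO 3 lay close to the upper Ctrl libraries. Ctrl averaged 2766 ± 632 and MIR21-KO 6249 ± 2492 (SD, n = 3 each), a ratio of 2.26. The log2 fold change was 1.11 ± 0.45 (SE), with a 95% interval of 0.06 to 2.16 and an adjusted p of 0.427 (limma). It rested on 7626 to 115220 reads per library, so counting error was small beside the spread between libraries.

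miR-320b counted 61.2, 108 and 182 normalised reads in Ctrl against 560, 414 and 154 in MIR21-KO. MIR21-KO 1 and 2 were the highest libraries and MIR21-KO 3 fell below Ctrl 3. Its log2 fold change was 1.62 ± 0.65 (SE; limma, adjusted p = 0.427), with a 95% interval of 0.10 to 3.14.

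miR-320c had the largest fold change of the 8 members tested, though it did not pass the test. It counted 7.74, 21.6 and 38.1 normalised reads in Ctrl against 139, 96.6 and 32.1 in MIR21-KO, and MIR21-KO 3 again lay below Ctrl 3. The log2 fold change was 1.96 ± 0.75 (SE; limma, adjusted p = 0.416), the 6th highest of 607. It was 1.37 without Ctrl 1 and 2.56 without MIR21-KO 3. Its reads ran from 29 in Ctrl 1 to 1924 in MIR21-KO 1.

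miR-320d counted 3.74, 6.76 and 6.77 normalised reads in Ctrl against 18.2, 16.0 and 7.41 in MIR21-KO. The order of the libraries was close to that of miR-320a, with MIR21-KO 3 just above Ctrl 2 and Ctrl 3. On the log2 scale the fold change was 1.09 ± 0.48 (SE; limma, adjusted p = 0.447), on 14 to 252 reads per library.

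miR-320e, the member with the shifted seed, was rare, with 1.07, 1.62 and 1.98 normalised reads in Ctrl against 5.55, 5.48 and 0.910 in MIR21-KO. MIR21-KO 3 held the lowest value of all, on 7 reads, and the groups overlapped. A log2 fold change of 0.78 ± 0.54 (SE; limma, adjusted p = 0.654) came with it, and it was 1.37 without MIR21-KO 3.

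Summed over miR-320a to miR-320e, the family took 0.334, 0.622 and 0.803% of the miRNA reads other than miR-21 in Ctrl 1 to 3, and 1.44, 1.44 and 0.506% in MIR21-KO 1 to 3. On this scale MIR21-KO 3 fell inside the Ctrl range. The same held for miR-320a and miR-320d taken singly. Of all miRNA reads, miR-21 included, the family took 0.115, 0.196 and 0.244% in Ctrl against 1.44, 1.44 and 0.506% in MIR21-KO, where the groups separate, since miR-21 alone fills most of each Ctrl library. Which scale is used therefore decides whether MIR21-KO 3 stands with Ctrl.

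Ratios between members need no scaling between libraries. In Ctrl 1 to 3, miR-320a made up 96.5, 95.8 and 93.2% of the family's reads, and in MIR21-KO 1 to 3 it made up 92.0, 92.9 and 94.7%. For each 100 reads of miR-320a there were 3.0, 3.46 and 5.82 reads of miR-320b in Ctrl against 6.75, 5.93 and 4.43 in MIR21-KO. For miR-320c the same ratio was 0.380, 0.691 and 1.22 in Ctrl against 1.67, 1.38 and 0.924 in MIR21-KO. Both ratios overlapped between the genotypes but not between library sets: the 3 libraries of set B, a Ctrl library among them, were above the 3 of set A. miR-320d behaved differently, at 0.184, 0.216 and 0.216 reads per 100 of miR-320a in Ctrl and 0.219, 0.230 and 0.213 in MIR21-KO, a narrow range over libraries in which miR-320a itself differed 4.07-fold. For miR-320e it was 0.0525, 0.0518 and 0.0631 in Ctrl against 0.0668, 0.0786 and 0.0262 in MIR21-KO, on as few as 4 reads. These ratios are given as a description, with no test, and they rest on the uncertain division of reads between the members.

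**Figure D2:**
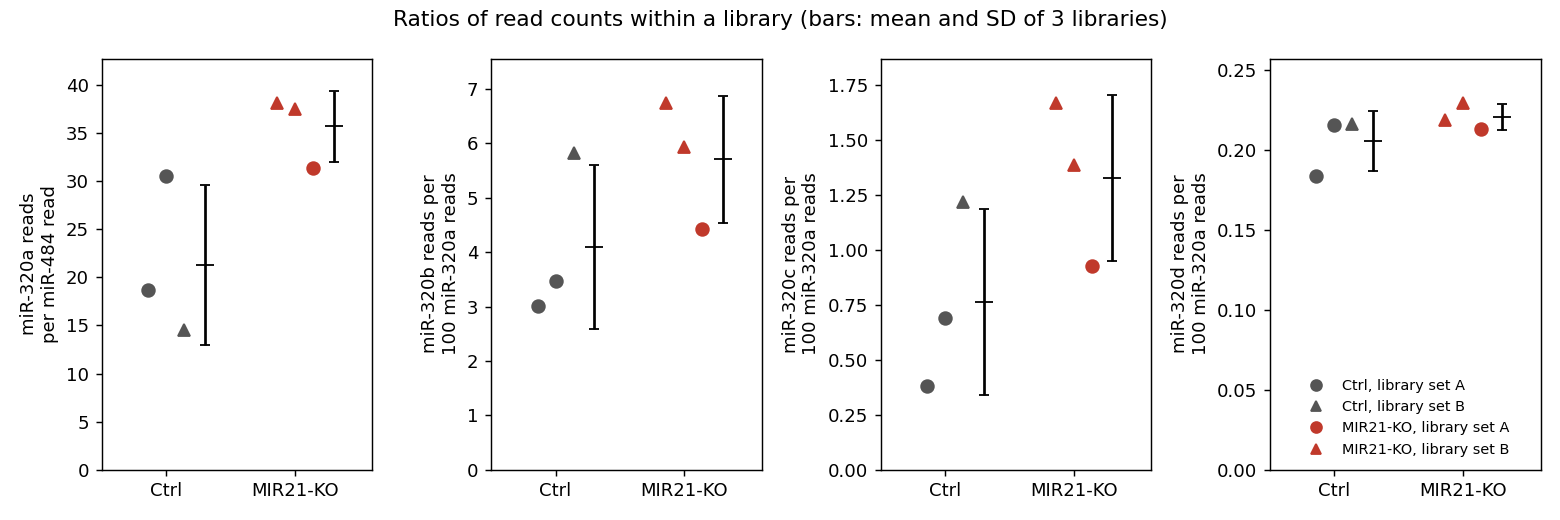
Ratios of raw reads within each library for Ctrl (grey) and MIR21-KO (red), circles for library set A and triangles for set B, with bars for the mean and SD of 3 libraries. miR-320a per miR-484 read separates the genotypes, miR-320b and miR-320c per 100 miR-320a reads separate the library sets, and miR-320d per 100 miR-320a reads stays between 0.184 and 0.230.

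miR-320b, miR-320c and miR-320d each have 2 rows in the deposited table, as each has a pair of loci, and the table does not say which row is which hairpin. The first row took 46.7 to 59.4% of the miR-320b reads over the 6 libraries. It took 45.0 to 58.6% for miR-320c and 50.0 to 66.7% for miR-320d. Since the mature sequences of a pair are identical, these near-even shares say nothing about the activity of either locus.

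miR-484, the other capped hairpin, showed a different pattern from miR-320a. It counted 109, 102 and 216 normalised reads in Ctrl against 217, 186 and 111 in MIR21-KO. The libraries fell into 2 levels, 102 to 111 normalised reads in the 3 libraries of set A and 186 to 217 in those of set B, and each level held both genotypes. Ctrl averaged 142 ± 63.5 and MIR21-KO 171 ± 54.8 (SD, n = 3 each). The log2 fold change was 0.30 ± 0.51 (SE; limma, adjusted p = 0.824). In this fit, which has no term for the sets, its 95% interval of -0.90 to 1.49 does not exclude a change of the size seen for miR-320a. Within set A the log2 fold change of miR-484 was 0.07 and within set B it was -0.10.

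The reads of miR-320a per read of miR-484 were 18.7, 30.6 and 14.5 in Ctrl against 38.2, 37.5 and 31.4 in MIR21-KO. The genotypes did not overlap, though MIR21-KO 3 exceeded Ctrl 2 by little, and the means were 21.3 ± 8.32 and 35.7 ± 3.74 (SD, n = 3 each). This ratio of both capped hairpins was noticed with the values in view and is given without a test.

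The library sets moved with the members to different degrees. With the genotype held constant, set B was higher than set A by a log2 difference of 0.72 ± 0.25 (SE) for miR-320a, 1.39 ± 0.29 for miR-320b, 1.65 ± 0.36 for miR-320c, 0.73 ± 0.33 for miR-320d, 1.06 ± 0.34 for miR-320e and 0.94 ± 0.25 for miR-484. For the mirtrons the difference was within its error, 0.03 ± 0.34 for miR-877-5p and 0.09 ± 0.28 for miR-1226-3p. Sets A and B did not overlap for 4 members (miR-320b, miR-320c, miR-320e and miR-484), against 35.1% of all tested miRNAs with set B above set A. What the sets stand for was not tested.

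With the set as a term in the limma fit, 3 of 8 members were called higher in MIR21-KO, against 11.7% of all tested miRNAs. They were miR-320a (log2 fold change 0.87, adjusted p = 0.0286), miR-320b (1.15, adjusted p = 0.0152) and miR-320c (1.41, adjusted p = 0.0160). Their fold changes were smaller than without the term, and their errors fell. In the same fit miR-484 had a log2 fold change of -0.0175 ± 0.25 (SE), beside 0.87 ± 0.25 for miR-320a. Since the sets were drawn from these same libraries, the adjusted p-values of this fit may be too small.

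Within each set the 3 kept their direction. miR-320a had a log2 fold change of 0.46 in set A, where MIR21-KO 3 is set against Ctrl 1 and 2, and 1.28 in set B, where MIR21-KO 1 and 2 are set against Ctrl 3. miR-320b had 0.91 and 1.40, and miR-320c 1.24 and 1.58. For miR-320d the values were 0.47 and 1.22, and for miR-320e they were of opposite sign, -0.29 and 1.13. No difference between the sets passed a limma interaction test, with adjusted p = 0.646 for miR-320a and 0.596 for miR-320e, and 0 of 607 miRNAs called in all. Each set has 1 library on one side, so these are values with little behind them.

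**Figure D3:**
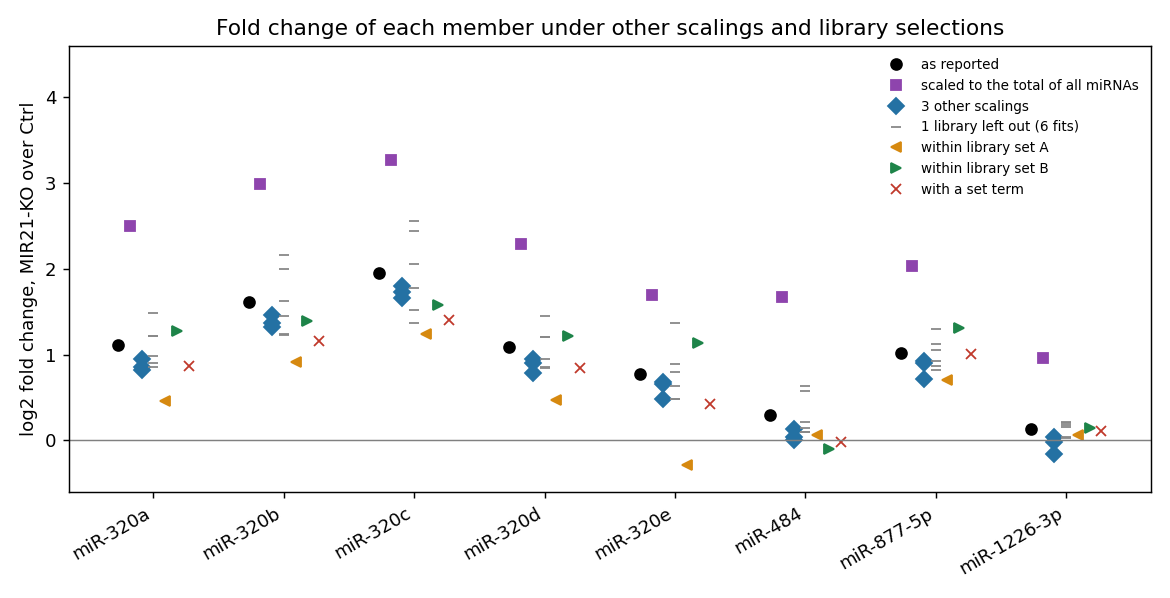
Log2 fold change, MIR21-KO over Ctrl, of the 8 tested miRNAs as reported (black circle) and under 4 other scalings, with 1 library left out, within each library set and with a set term. Scaling to the total of all miRNAs gives the highest value for every member, and miR-320e in set A (-0.29) and miR-484 in set B (-0.10) lie below 0.

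Of the alternatives run, scaling to the total moved the members most. When libraries were scaled to the total of all miRNA reads, in which miR-21 fills most of the Ctrl libraries, 5 of 8 members were called higher in MIR21-KO (limma, adjusted p between 0.0246 and 0.0312). They were miR-320a, miR-320b, miR-320c, miR-320d and miR-877-5p. The background rose to 32.3% of all tested miRNAs, and the median log2 fold change of all of them from 0.24 to 1.34. Set against that shift, the median of the members (2.17) was above the median of all miRNAs by about the same distance as before.

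The miRNAs closest in pattern to miR-320a were sought among 331 with a mean of at least 10 normalised reads, by the root mean square difference of log2(value + 1) after centring each miRNA on its own mean over the 6 libraries. They were miR-432-5p (0.0905), miR-452-5p (0.174) and let-7e-5p (0.194), where the median candidate differed by 0.852. miR-320b stood at rank 31 (0.422), miR-484 at rank 57 (0.522) and miR-320c at rank 101 (0.659). The nearest to miR-484 were miR-196b-5p (0.115), miR-30a-5p (0.116) and miR-136-3p (0.132), with miR-320a at rank 100 and a median of 0.727. So neither capped hairpin had the other, nor miR-320a either of miR-320b and miR-320c, among its 3 nearest. miR-320d and miR-320e had means below 10 (9.81 and 2.77 normalised reads) and were not candidates. By read ratio miR-320d followed miR-320a closely, at 0.184 to 0.230 reads per 100 of miR-320a in the 6 libraries. The ranks therefore hold among the candidates only.

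The mirtron miR-877-5p, the donor-side arm of the ABCF1 intron, counted 1.34, 3.51 and 1.69 normalised reads in Ctrl against 4.83, 6.64 and 4.29 in MIR21-KO. In normalised reads the groups did not overlap, and MIR21-KO 3 stood with the other MIR21-KO libraries. As a share of the miRNA reads other than miR-21, MIR21-KO 3 fell below Ctrl 2, so the groups overlapped on that scale. Ctrl averaged 2.18 ± 1.17 and MIR21-KO 5.25 ± 1.23 (SD, n = 3 each), a ratio of 2.41. The log2 fold change was 1.02 ± 0.40 (SE; limma, adjusted p = 0.426), with a 95% interval of 0.09 to 1.95. It was 0.70 in set A and 1.31 in set B. Only 5, 13 and 12 reads stood behind the Ctrl values, and 67, 92 and 33 behind those of MIR21-KO.

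The other arm, miR-877-3p, was at the edge of detection, with 4, 1 and 1 reads in Ctrl against 2, 6 and 2 in MIR21-KO. It did not reach the filter and no fold change is given. Of the reads of both arms, miR-877-5p took 55.6, 92.9 and 92.3% in Ctrl against 97.1, 93.9 and 94.3% in MIR21-KO. The difference of the means was 14.8 percentage points (exact two-sided permutation test, p = 0.1, the smallest that 3 against 3 allows). It rested on Ctrl 1, where 5 of 9 reads were miR-877-5p (95% Wilson interval 26.7 to 81.1%), and was 2.51 points without that library. The donor-side arm was the more abundant in all 6 libraries.

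miR-1226-3p, the acceptor-side arm of the DHX30 intron, was present at 1.07, 1.62 and 1.41 normalised reads in Ctrl against 1.37, 2.02 and 1.43 in MIR21-KO. The groups overlapped between 1.37 and 1.62 normalised reads, with Ctrl 1 the lowest library and MIR21-KO 2 the highest. Its log2 fold change was 0.14 ± 0.31 (SE; limma, adjusted p = 0.851), with a 95% interval of -0.58 to 0.85. It rested on 4 to 28 reads per library. Its passenger arm, miR-1226-5p, had 1, 0 and 1 reads in Ctrl against 3, 3 and 4 in MIR21-KO. The dominant arm was thus the 5′ arm for miR-877 and the 3′ arm for miR-1226.

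The other mirtrons examined were close to the limit of detection. Of 19 other annotated mirtron arms (from miR-1224, miR-1225, miR-1227, miR-1228, miR-1229, miR-1233, miR-1234, miR-1236, miR-1237 and miR-1238), 0 passed the filter. 6 had no read in any library and 13 had some, and none exceeded the 9 reads of miR-1237-3p in MIR21-KO 1 and in MIR21-KO 2. 3 of these arms did not overlap between the groups in normalised reads, in both directions. Over the tested miRNAs the share was 9.56% with MIR21-KO higher, but none of these arms was tested, so it is no background for them. miR-1228-5p was higher in MIR21-KO, with 0 reads in each Ctrl library against 7, 4 and 3. In normalised reads miR-1224-5p was lower in MIR21-KO, at 0.801, 1.08 and 0.564 in Ctrl against 0.432, 0.361 and 0. miR-1237-3p was lower too, at 0.801, 1.62 and 0.706 in Ctrl against 0.648, 0.649 and 0. In reads, MIR21-KO 1 and 2 held more than any Ctrl library for both arms. The reads were 3, 4 and 4 in Ctrl against 6, 5 and 0 for miR-1224-5p. For miR-1237-3p they were 3, 6 and 5 against 9, 9 and 0. 1 read was worth 0.267, 0.270 and 0.141 in Ctrl 1 to 3, but 0.0720 and 0.0721 in MIR21-KO 1 and 2. All 3 rest on too few reads for a fold change, since 0 reads allow up to 3 by counting error alone.

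miR-4429, whose seed is that of miR-320b, counted 0.534, 0.811 and 0.706 normalised reads in Ctrl against 1.94, 1.95 and 1.17 in MIR21-KO, on 2 to 27 reads. It passed the filter only through the 3 MIR21-KO libraries, as every Ctrl value was below 1. The lack of overlap between the groups and the sign of the change were therefore fixed by the filter. The log2 fold change was 0.66 ± 0.30 (SE; limma, adjusted p = 0.454). miR-3155a, which has the seed of miR-484, had 1, 0 and 6 reads in Ctrl against 11, 12 and 1 in MIR21-KO and did not reach the filter, and miR-3155b had none.

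miR-451a is made by the converse exception, needing DROSHA but not DICER1, since AGO2 cuts its short hairpin. It counted 16.3, 41.6 and 1.69 normalised reads in Ctrl against 4.61, 2.45 and 8.97 in MIR21-KO. Set A, not set B, held the higher values here. The log2 fold change was -1.12 ± 0.98 (SE; limma, adjusted p = 0.719).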

How the data were processed

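Small RNA-seq libraries of 3 Ctrl and 3 MIR21-KO samples of A549 were analysed. Per the submitters' processing notes, cutadapt 1.14, Bowtie2 2.3.2, SAMtools 1.5, featureCounts 1.5.3, edgeR 3.18.1 and hg38 were used. The miRNA annotation and multi-mapping rules were not given in the sources used here. The deposited signal holds read counts that the authors divided by TMM-scaled library sizes. Whole reads were recovered for 100% of values (tolerance 1e-06 of a read). Columns of the authors' fold changes and p-values were not used.

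Of 2813 rows, 2588 miRNAs remained after summing rows of one name. limma 3.58.1 (R 4.3.3, trend, two-sided) was run on log2(value + 1), so fold changes of rare miRNAs are understated. edgeR 4.0.16 and DESeq2 1.42.0 were run on recovered reads. limma, edgeR and DESeq2 were tried on simulated counts. These held neither library sets nor the loss of miR-21, so the trial does not cover those features of the data. The alternatives were other pseudocounts, filters, scalings, tests, a replicate block, a set term, separate rows and leaving out each library. All 9 members and the fixed lists are named. Members, lists and library sets were chosen with earlier results of these data known. Intervals of shares are 95% Wilson intervals and, like read floors, cover counting error only. Replicate libraries differed beyond sampling noise (chi-square per degree of freedom 130 to 2560). Sequences and coordinates are from RefSeq GRCh38.p14, and gene context from GENCODE on GRCh38.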

Additional observations from a re-analysis of the deposited data

How the results depend on the processing

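No member was called in the reported fit, and the count rose to 5 with scaling to the total of all miRNA reads, where the median log2 fold change of the members moved from 1.05 to 2.17, and to 3 with the set term. The lowest medians were 0.45 with a pseudocount of 10, where miR-877-5p fell from 1.02 to 0.33 and miR-320d from 1.09 to 0.57, and 0.47 within set A. Leaving out each library in turn gave 0 called members each time (0 to 0) and a median of 0.84 to 1.41. The difference in arm share of miR-877 ran from 2.51 points (without Ctrl 1) to 21.2 points (without Ctrl 2). miR-1226-3p turned to -0.0189 with scaling to the total without miR-21 and to -0.16 with median centring, miR-320e to -0.29 within set A, and miR-484 to -5.21e-05 with median centring, -0.0175 with the set term and -0.10 within set B; for these signs the cause was not tested. With the replicate number as a block, 0 members were called, the median stayed at 1.05 and 2 miRNAs in all were called lower instead of 5. The unadjusted p of miR-320a, miR-320b, miR-320c and miR-877-5p was then 0.0936 to 0.124 (limma). For the same members it was 0.0977 to 0.152 with scaling to the total without miR-21. In that scaling 12 of 607 miRNAs were higher at an unadjusted p below 0.05, where the reported fit had 41. Same-numbered libraries of Ctrl and MIR21-KO fell in different library sets, and their deviations correlated at -0.88, -0.71 and -0.91 across miRNAs. Because the sets cross the numbers, these correlations cannot tell whether same-numbered libraries were paired by culture or harvest. Over all 607 miRNAs, the counts called higher and lower were 0 and 5 as reported, 0 and 7 with edgeR, 4 and 18 with DESeq2, 71 and 39 with the set term, 196 and 7 with scaling to the total, 0 and 3 with a pseudocount of 10, and 3 and 2 without a filter. Of the members, miR-877-3p, miR-1226-3p and miR-320e had the fewest reads, and their values are the least precise in counting.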
